A study of Mus musculus with 2 samples.

Results

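The regions described here lie at the ends of protein-coding genes. They were taken from the authors' list of differentially methylated regions between PDGFRα+ (CD140+) and CD137+ adipose progenitors. A region was included where it overlapped the 1000 bases on either side of the start or end coordinate of a RefSeq protein-coding gene span on chromosomes 1 to 19 (GRCm38.p6, the assembly of mm10). This held for 1258 regions, 4.53% of the 27774 on these chromosomes and of 28141 deposited in all. The window rule used position alone, within a list that the authors had chosen by methylation difference. Strand was known for 16457 of the 20665 genes, so that gene starts and gene ends could be separated for 79.6% of them. Of the regions, 486 lay at gene starts only, 453 at gene ends only, 45 in windows of both kinds, and 274 only at genes whose strand was not given.

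Both libraries were whole-genome bisulfite libraries from C57BL/6 mice, 1 per group. In this assay an unmethylated cytosine is converted and a methylated one is not, so a region's methylation level runs between 0 (no cytosine methylated in the reads) and 1 (every cytosine methylated). The PDGFRα+ library came from adipose progenitors sorted magnetically for PDGFRα, a growth factor receptor of mesenchymal progenitors. The CD137+ library came from progenitors sorted in the same way for CD137, a receptor used as a marker of beige precursors. Both groups were grown in culture, given an adipogenic cocktail, and, once differentiated, received dexamethasone, a synthetic glucocorticoid, at 1 µM. They came from subcutaneous or visceral fat, and the labels do not say which depot gave which library, how many mice were pooled, or their age. No untreated library was compared. With 1 library per group there is no replicate check, no test between groups was made, and no p-value is given. Read depth is unknown, so levels have no intervals. In bulk DNA a share of cells with the methylated state and partial methylation in every cell cannot be told apart.

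Most mammalian promoters dense in CpG dinucleotides stay unmethylated in every cell type, whatever the gene's activity. Promoters with few CpGs are more often methylated, and they tend to lose methylation in the cell types that use the gene. Methylation within a gene and at its end is usually high and is not a mark of silence. The position of a region relative to the gene start therefore matters for how its level is read.

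The promoters below belong to the regions with the largest area statistic, a value from the authors' deposited table, among those that covered a whole RefSeq promoter window, 4 for each direction, and to 3 members of the gene lists used further on, Ptprc, Acta2 and Krt7. Each run is the 250 bases before an annotated start, from RefSeq (GRCm38.p6), 5′ to 3′ on the strand of the gene, with CpG dinucleotides in capitals. The first group lies in regions more methylated in PDGFRα+ cells. It holds Dock2 and Plek, genes of leukocyte signalling, Lrrc70, P2ry12, an ADP receptor gene of platelets and microglia, and Ptprc, which encodes the leukocyte antigen CD45.
Dock2: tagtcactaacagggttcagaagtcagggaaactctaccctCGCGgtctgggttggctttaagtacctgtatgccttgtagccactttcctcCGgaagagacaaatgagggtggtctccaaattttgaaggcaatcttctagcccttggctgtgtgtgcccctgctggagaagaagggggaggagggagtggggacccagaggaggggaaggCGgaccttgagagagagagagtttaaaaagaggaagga
Lrrc70: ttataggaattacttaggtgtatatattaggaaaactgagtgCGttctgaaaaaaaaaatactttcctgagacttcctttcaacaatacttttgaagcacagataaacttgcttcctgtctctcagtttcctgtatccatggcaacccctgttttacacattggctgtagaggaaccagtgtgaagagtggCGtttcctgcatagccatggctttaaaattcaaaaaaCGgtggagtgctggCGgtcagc
Plek: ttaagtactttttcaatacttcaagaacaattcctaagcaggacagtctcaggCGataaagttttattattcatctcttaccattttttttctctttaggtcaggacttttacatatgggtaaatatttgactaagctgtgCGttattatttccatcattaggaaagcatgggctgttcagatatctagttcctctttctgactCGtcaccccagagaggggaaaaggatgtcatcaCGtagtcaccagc
P2ry12: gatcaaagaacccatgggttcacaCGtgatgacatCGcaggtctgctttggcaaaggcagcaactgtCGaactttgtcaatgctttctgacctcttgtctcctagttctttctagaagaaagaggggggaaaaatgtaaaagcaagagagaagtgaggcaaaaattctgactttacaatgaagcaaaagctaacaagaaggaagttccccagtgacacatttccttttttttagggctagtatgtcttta
Ptprc: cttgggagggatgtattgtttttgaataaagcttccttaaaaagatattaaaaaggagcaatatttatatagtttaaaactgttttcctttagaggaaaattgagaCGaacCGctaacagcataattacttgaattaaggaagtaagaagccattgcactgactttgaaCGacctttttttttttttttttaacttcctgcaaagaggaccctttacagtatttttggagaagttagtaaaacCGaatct
The Dock2 run is chr11:34783906-34784155 on the minus strand, Lrrc70 is chr13:106836303-106836552, minus, and Plek is chr11:17008719-17008968, minus. P2ry12 is chr3:59262986-59263235, minus, and Ptprc is chr1:138175306-138175555, minus. P2ry12 holds 3 CpGs and the other runs hold 4 each. Lrrc70 had a level of 0.738 in PDGFRα+, against 0.306 in CD137+, over its start.

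The second group lies in regions less methylated in PDGFRα+ cells. It holds Ogn, a small proteoglycan gene of connective tissue, Cldn15, a tight junction gene, Abca15, of the ABC transporter family, Acta2, the smooth muscle actin gene, Krt7, a keratin gene of simple epithelia and mesothelium, and Hoxa5, a homeobox gene of axial patterning.
Ogn: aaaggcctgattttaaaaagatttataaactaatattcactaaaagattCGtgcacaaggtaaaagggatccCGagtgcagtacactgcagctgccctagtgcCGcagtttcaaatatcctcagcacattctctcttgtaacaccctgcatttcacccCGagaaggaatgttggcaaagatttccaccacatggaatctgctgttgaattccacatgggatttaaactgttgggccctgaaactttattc
Cldn15: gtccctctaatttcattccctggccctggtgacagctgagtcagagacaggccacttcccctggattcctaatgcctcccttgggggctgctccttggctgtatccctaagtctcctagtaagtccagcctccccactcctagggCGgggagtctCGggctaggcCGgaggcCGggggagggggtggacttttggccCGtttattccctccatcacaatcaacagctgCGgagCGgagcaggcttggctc
Abca15: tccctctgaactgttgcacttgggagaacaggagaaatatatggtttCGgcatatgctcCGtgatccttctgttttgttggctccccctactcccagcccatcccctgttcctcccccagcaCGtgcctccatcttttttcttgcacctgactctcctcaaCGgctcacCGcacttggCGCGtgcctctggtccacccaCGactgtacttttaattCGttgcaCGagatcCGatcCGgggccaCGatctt
Acta2: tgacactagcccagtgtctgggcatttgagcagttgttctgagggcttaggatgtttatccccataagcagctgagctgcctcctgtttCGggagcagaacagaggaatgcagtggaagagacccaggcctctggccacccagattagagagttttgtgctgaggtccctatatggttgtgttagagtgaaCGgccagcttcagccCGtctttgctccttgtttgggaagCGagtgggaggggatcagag
Krt7: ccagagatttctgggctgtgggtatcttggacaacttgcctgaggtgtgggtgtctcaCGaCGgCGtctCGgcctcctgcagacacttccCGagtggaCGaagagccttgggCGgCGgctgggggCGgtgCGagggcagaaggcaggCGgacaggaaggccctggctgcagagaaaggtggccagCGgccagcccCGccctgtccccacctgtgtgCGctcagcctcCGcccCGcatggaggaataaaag
Hoxa5: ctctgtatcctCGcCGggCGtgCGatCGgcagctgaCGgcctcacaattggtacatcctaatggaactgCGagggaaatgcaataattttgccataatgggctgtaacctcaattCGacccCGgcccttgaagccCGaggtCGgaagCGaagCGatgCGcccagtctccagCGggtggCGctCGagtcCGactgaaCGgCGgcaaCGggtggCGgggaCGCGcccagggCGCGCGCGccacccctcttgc
The Ogn run is chr13:49607765-49608014 on the plus strand, Cldn15 is chr5:136967619-136967868, plus, and Abca15 is chr7:120328434-120328683, plus. Acta2 is chr19:34255374-34255623, minus. Krt7 is chr15:101412153-101412402, plus, and Hoxa5 is chr6:52204588-52204837, minus. Ogn and Acta2 hold 4 CpGs each, Cldn15 holds 7, Abca15 holds 13, Krt7 holds 16 and Hoxa5 holds 28. Cldn15 had a level of 0.175 in PDGFRα+, against 0.814 in CD137+, and Abca15 0.174 and 0.811. The deposited regions cover all of these runs except parts of Acta2 and Krt7, of which 161 and 193 bases are covered.

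Regions at the starts or ends of genes were more often higher in PDGFRα+ cells than regions elsewhere, although most were lower there too. Of the 1258 regions, 426 (33.9%, 95% Wilson interval 31.3 to 36.5) were higher in PDGFRα+ and 832 were lower. Over all regions of chromosomes 1 to 19 the share higher was 22.3%, and 77.7% were lower. Outside the windows it was 21.7% (21.3 to 22.2, 5767 of 26516). Intervals cover counting error only and treat regions as independent. At gene starts 169 of 486 regions were higher (34.8%, 30.7 to 39.1), and at gene ends 147 of 453 (32.5%, 28.3 to 36.9), so starts and ends did not differ beyond counting error. Regions in windows of both kinds were higher in 9 of 45 (20%, 10.9 to 33.8). Where strand was not given the share was 36.9% (31.4 to 42.7). In the gene interior, away from both windows, it was 24.3% (23.6 to 25, 3345 of 13756), and away from protein-coding genes 19% (18.3 to 19.7, 2422 of 12760). On 18 of 19 chromosomes the regions at gene starts or ends had the larger share. The exception was chromosome 7, with 23.0% at starts or ends and 26.4% elsewhere. Counted once per gene, 387 of the 1232 genes with a region were mostly higher in PDGFRα+ (31.4%), 829 were mostly lower (67.3%) and 16 were split. These genes are 5.96% of the 20665.

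**Figure D1:**
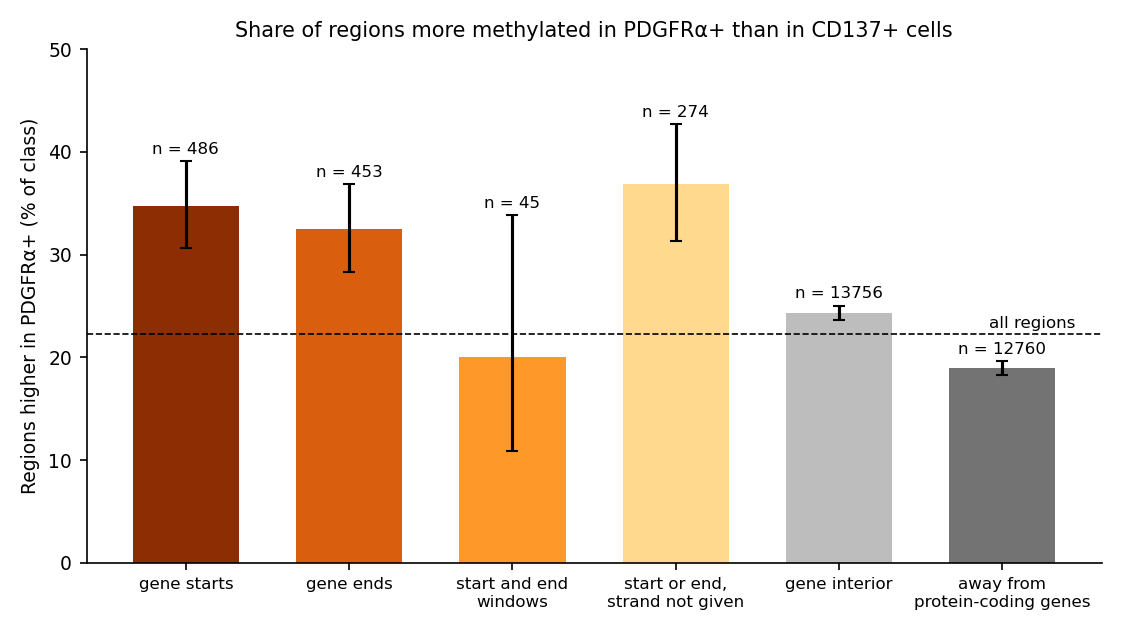
Bars give the percentage of regions more methylated in PDGFRα+ than in CD137+ cells for each class of position, with 95% Wilson intervals for counting error and the number of regions above each bar; the dashed line is the share over all regions of chromosomes 1 to 19. Gene starts (34.8%) and gene ends (32.5%) stand above the gene interior (24.3%) and the regions away from protein-coding genes (19%).

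The regions at gene starts or ends were not otherwise unusual in size. Their median length was 226 bases with 10 cytosines, against 216 bases with 9 cytosines outside the windows. The median density was 4.84 and 4.62 cytosines per 100 bases. Within the class of 3 to 6 cytosines per 100 bases, the largest class, the share higher in PDGFRα+ was 35.3% at starts (83 of 235), 32.9% at ends (74 of 225) and 20.9% outside (2784 of 13349). Below 3 per 100 bases it was 37.5% at starts (27.7 to 48.5, 30 of 80), 26.0% at ends (17.3 to 37.1, 19 of 73) and 16.5% outside (15.5 to 17.6, 821 of 4972). In this class the interval at ends overlaps slightly with the one outside, and the interval at starts does not. From 6 to 12 per 100 bases it was 33.3% at starts (26.4 to 41.1, 51 of 153), 33.3% at ends (25.9 to 41.6, 45 of 135) and 26.1% outside (25.1 to 27.1, 1925 of 7376), so there the intervals at starts and ends overlap with the one outside. Above 12 per 100 bases only 18 start regions and 20 end regions remained, and their shares, 27.8% and 45%, had intervals that cover the 28.9% found outside. The genes themselves were of ordinary length, with a median of 18.6 kb for genes with a start region, 16.8 kb for those with an end region and 17.3 kb for all genes of known strand.

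Start regions differed from end regions in level more than in direction. Start regions lower in PDGFRα+ cells had a median of 0.20 in PDGFRα+ and 0.759 in CD137+. In the corresponding end regions it was 0.288 in PDGFRα+, against 0.842 in CD137+, and outside the windows 0.262 in PDGFRα+ and 0.820 in CD137+. Lower start regions thus stood below the others in both libraries, while the median difference was alike at starts, ends and outside (-0.522, -0.515 and -0.526). The lower of the 2 levels was under 0.2 in 159 of 317 lower start regions (50.2%, 44.7 to 55.6). The same was true of 80 of 306 lower end regions (26.1%, 21.5 to 31.3) and of 32.1% outside (31.4 to 32.7). Start regions higher in PDGFRα+ had a median of 0.861 in PDGFRα+, against 0.296 in CD137+. In higher end regions it was 0.858 in PDGFRα+ and 0.338 in CD137+. The level in CD137+ was under 0.2 in 17.8% of the higher start regions (12.7 to 24.2), in 16.3% of the higher end regions (11.2 to 23.1) and in 10.1% of the higher regions outside (9.39 to 10.9). An absolute difference of at least 0.5 was found in 57.6% of start regions, 51.0% of end regions and 58.1% of all regions.

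**Figure D2:**
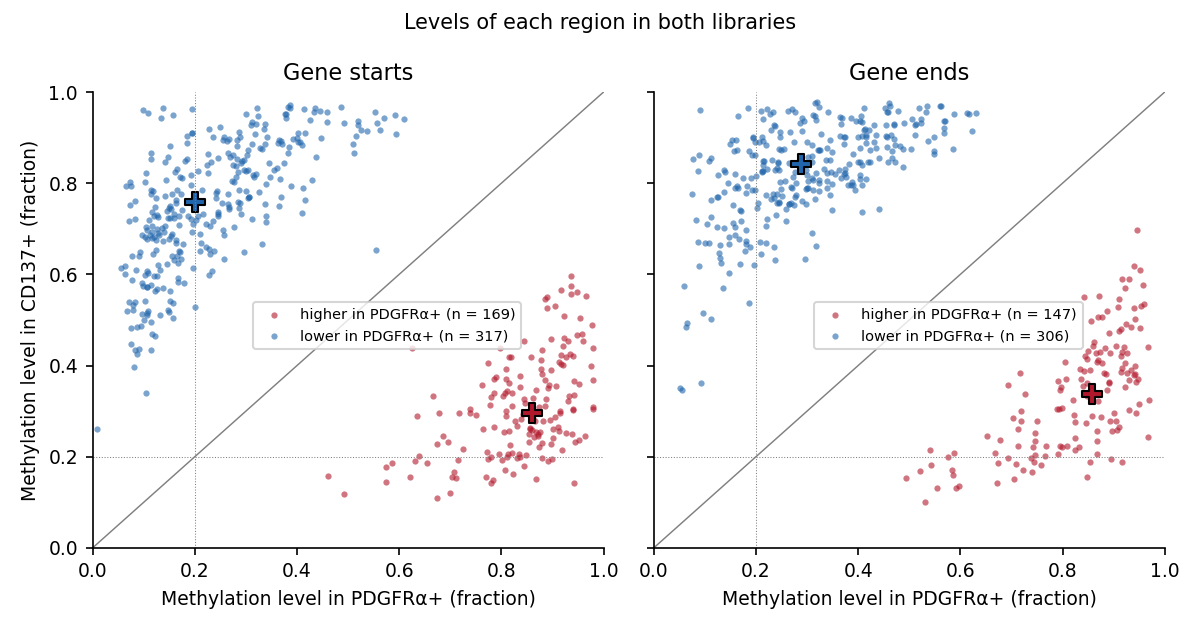
Each point is 1 region at a gene start (left) or gene end (right), with its methylation level in PDGFRα+ on the x axis and in CD137+ on the y axis, as fractions; crosses are medians of the higher (red) and lower (blue) regions and dotted lines mark 0.2. The blue points at gene starts reach further to the left and lie lower than those at gene ends, with medians of 0.20 in PDGFRα+ and 0.759 in CD137+ at starts and 0.288 in PDGFRα+ and 0.842 in CD137+ at ends.

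The raised share of higher regions was not confined to the windows, either around gene starts or around gene ends. With region midpoints placed along the direction of transcription, 32.7% were higher in PDGFRα+ within 1000 bases of a start (28.6 to 37.1, 151 of 462). From 1000 to 10000 bases before the start the share was 33.3% (31.0 to 35.5, 559 of 1681), and from 1000 to 10000 bases after it 34.3% (32.4 to 36.3, 754 of 2196). Around gene ends the share was 31.6% within 1000 bases (27.5 to 36.0, 146 of 462). It was 28.1% (26.0 to 30.2) from 1000 to 10000 bases before the end and 26.9% (24.9 to 29.0) from 1000 to 10000 bases after it. Regions were most frequent just after the start windows. The bins from 1000 to 1500 and from 1500 to 2000 bases after the start held 11.3 and 11.1 regions per 1000 genes, against 8.69 in the first 500 bases after the start and 6.14 in the 500 bases before it. A region can lie near several genes and is then counted at each.

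**Figure D3:**
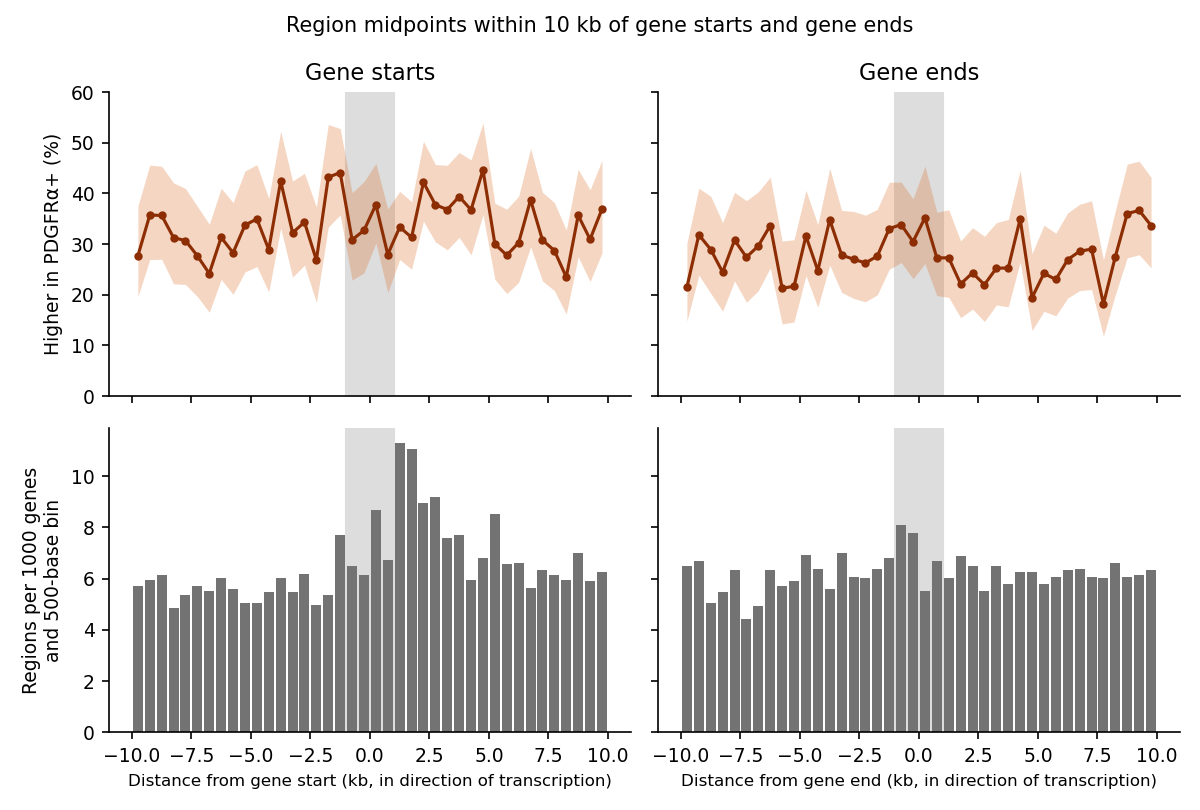
Region midpoints are binned by 500 bases from 10 kb before to 10 kb after gene starts (left) and gene ends (right), with the windows of 1000 bases in grey; the upper panels give the percentage higher in PDGFRα+ with 95% Wilson intervals as bands, and the lower panels the number of regions per 1000 genes and bin. Region number peaks at 11.3 per 1000 genes just beyond the start window, and the share near starts (32.7%) is close to that from 1 to 10 kb before (33.3%) and after them (34.3%).

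Regions directly over a promoter lay at promoters poor in CpG. RefSeq promoter windows of 300 bases, from 250 before to 50 after an annotated start, were available for all 16457 genes of known strand (20085 windows). They do not include the outermost start of every gene. Some regions over a start are therefore left out here, such as those of Mgst2, Ripor2 and Vcan. Of the regions at gene starts or ends, 134 overlapped such a window, 52 higher in PDGFRα+ (38.8%, 31.0 to 47.3) and 82 lower. Windows with a higher region held a median of 5 CpGs (n = 54), windows with a lower region 7 (n = 84), and all windows 14. At least 15 CpGs were found in 1 of the 54 windows with a higher region (1.85%), in 9 of the 84 with a lower region (10.7%) and in 48.1% of all windows. The median ratio of observed to expected CpG was 0.306, 0.336 and 0.586 in the same order. Each of 4 motifs was searched on both strands, separately and whether or not it overlapped another, and a match describes the letters only. GGAATG, the core bound by TEAD factors, was found in 5 of 54 windows with a higher region (9.26%), in 15 of 84 with a lower region (17.9%) and in 13.4% of all windows. Among the sequences shown, those of Ogn, Cldn15 and Acta2 contain it. AGAACA, a partial site of the glucocorticoid receptor, was found in 25.9%, 21.4% and 16.1%, in that order. TATAAA was found in 24.1%, 10.7% and 12.7%, and the E-box CACGTG in 11.1%, 13.1% and 7.89%. For the shares of matches the intervals of higher and lower windows overlap.

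**Figure D4:**
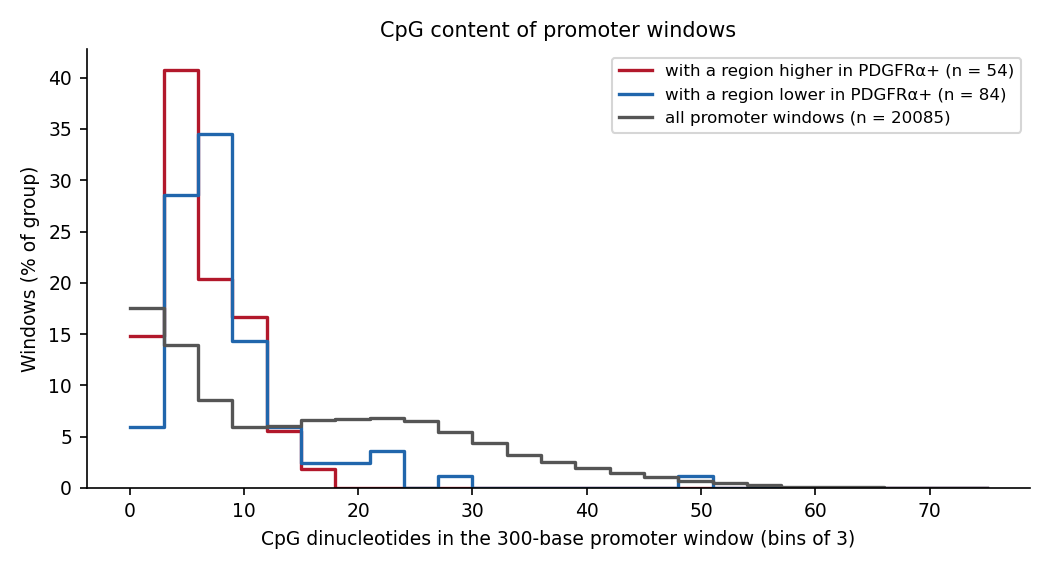
Step lines give the percentage of RefSeq promoter windows of 300 bases by their number of CpG dinucleotides, in bins of 3, for windows that overlap a region higher (red, n = 54) or lower (blue, n = 84) in PDGFRα+ and for all 20085 windows (grey). Windows with a region gather at low CpG numbers, with medians of 5 and 7, while all windows have a median of 14.

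The start regions with the largest positive area statistic lay at genes of several kinds. At Mbnl1, a splicing regulator gene (chromosome 3, 60472883 to 60475130), the level was 0.926 in PDGFRα+ and 0.252 in CD137+. Deposited starts are kept as they stand, and could be 1 base too low if the table counts from 0. At Mgst2, a glutathione transferase gene, a region over the start coordinate had levels of 0.934 in PDGFRα+, against 0.425 in CD137+. At Mrps23, a mitochondrial ribosomal protein gene, the levels were 0.846 and 0.219, and this region also lay at the end of Cuedc1. Arhgap30, Ripor2 and Dock2, which activates Rac in leukocytes, followed. Their regions all covered the start coordinate. Arhgap30 had levels of 0.846 in PDGFRα+, against 0.283 in CD137+, Ripor2 0.868 and 0.346, and Dock2 0.854 and 0.251. The Arhgap30 region also lay at the end of Nectin4. Of all regions at gene starts or ends, 106 lay in the windows of several genes, and not every such case is named. Across the 6 regions the level ranged from 0.846 to 0.934 in PDGFRα+ and from 0.219 to 0.425 in CD137+. They were picked by direction and area statistic from regions called by difference, so this separation follows from the choice.

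The start regions with the largest negative statistic included the promoter of Hoxa5 (chromosome 6, 52203837 to 52205404, 148 cytosines), with a level of 0.185 in PDGFRα+, against 0.665 in CD137+. The same region lay at the end of Hoxa6. Gzf1, a zinc finger gene, had levels of 0.166 in PDGFRα+, against 0.832 in CD137+. Il1rl2, a receptor gene of the interleukin-36 cytokines, had levels of 0.106 in PDGFRα+, against 0.572 in CD137+. At Insl3, a peptide hormone gene whose region also lay at the end of the cytokine-signalling kinase gene Jak3, they were 0.210 and 0.687. At Zfp119b, a zinc finger gene, they were 0.156 and 0.514, and its region also lay at the end of Ebi3, an interleukin subunit gene. Klc1, a kinesin light chain gene, differed from these in kind. Its level was 0.0092 in PDGFRα+ and 0.261 in CD137+, and it was the only region of the 1258 with a library below 0.02, out of 81 such regions in the series.

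Start regions of other genes of blood cells and connective tissue went both ways; the examples were chosen after their values were seen and no count stands behind them. Plek, whose product pleckstrin is a protein kinase C substrate of platelets and leukocytes, had levels of 0.861 in PDGFRα+, against 0.258 in CD137+, over its start. Cd96, a receptor gene of T and natural killer cells, had 0.818 in PDGFRα+ and 0.225 in CD137+. Ccl3, a chemokine gene short enough for 1 region to lie at both its ends, had 0.851 and 0.310. Nlrp3, an inflammasome sensor gene, had 0.914 in PDGFRα+ and 0.296 in CD137+, and Cd48, a leukocyte adhesion gene, 0.764 and 0.261. Milr1, a mast cell receptor gene (0.830 and 0.267), and Grap2, an adaptor gene of T cell signalling (0.750 and 0.291), were also higher. In the other direction, Ogn had 0.181 in PDGFRα+ and 0.849 in CD137+ over its start, in a region of 2724 bases. Mxra8, which encodes a surface protein of mesenchymal cells, had 0.117 in PDGFRα+ and 0.737 in CD137+. Genes of immune cells were among the lower ones too, such as Il16, a cytokine gene (0.129 and 0.685), Gzmk, a granzyme gene of cytotoxic lymphocytes (0.282 and 0.852), and Ms4a2, a subunit gene of the IgE receptor (0.144 and 0.807). Itih5, a matrix-associated gene, was higher (0.871 and 0.249).

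The rankings for starts and for ends leave out regions at genes whose strand was not given. The largest positive statistic of all lay at such a gene, Mab21l1, with 0.842 in PDGFRα+ and 0.324 in CD137+. Among end windows of known strand the largest positive statistic belonged to Fxyd1, a regulator of the sodium pump (chromosome 7, 31051968 to 31052998). The level there was 0.766 in PDGFRα+, against 0.201 in CD137+. Catip, a gene of cilium formation, had levels of 0.946 in PDGFRα+, against 0.697 in CD137+, the smallest difference of the 6. At Rcn3, a gene of the secretory pathway, they were 0.823 and 0.292, and at Cdkn2b, a cell cycle inhibitor gene, 0.746 and 0.253. The region at the end of Lyl1, a blood transcription factor gene, had 0.746 in PDGFRα+ and 0.203 in CD137+ and lay also at the end of Nfix. The Cuedc1 region is the one shared with Mrps23. At the negative side, beyond the regions shared with Hoxa5, Insl3 and Zfp119b, the end of Gimap1, a lymphocyte GTPase gene, had 0.234 in PDGFRα+ and 0.775 in CD137+. The end of Cmpk2, a nucleotide kinase gene, had 0.171 in PDGFRα+ and 0.739 in CD137+, and the end of the gene model LOC102637806 had 0.167 and 0.677.

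Several genes held a run of regions in their windows, and within each gene named here all regions had the same direction. Among all genes with a region 31.4% were mostly higher. Isl1, a LIM-homeobox gene, held 4 regions around its end, with levels from 0.494 to 0.584 in PDGFRα+ and from 0.154 to 0.214 in CD137+. Foxc2, a forkhead gene of mesenchyme, also held 4, all higher in PDGFRα+ (0.611 to 0.763 in PDGFRα+ and 0.161 to 0.363 in CD137+). A further 12 genes held 3, and the tie brought all of them in. Foxc1, Emx2 and Kcna3, a potassium channel gene of lymphocytes, were higher in 3 of 3, as was Gpr65, a proton-sensing receptor gene of leukocytes. So were the pairs Mrps23 with Cuedc1 and Fxyd1 with Fxyd7, which share their regions. Hoxa5 was lower in 3 of 3, as were Nr1h4, the bile acid receptor gene, Igfbp6, which encodes an IGF-binding protein, and Zfp503. At the end of Zfp503 the levels were low in both libraries, from 0.0517 to 0.0928 in PDGFRα+ and from 0.347 to 0.363 in CD137+.

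Of 37 genes with a region at both start and end, 7 were higher at both, 20 were lower at both, and 10 went opposite ways. Only 34.8% of start regions and 32.5% of end regions were higher, so many genes would be lower at both by the general direction alone. Whether start and end agree more often than that was not tested. In 12 of the 37 the start and end windows shared the same region, which leaves 5 higher and 10 lower at both from separate regions. P2ry12 was the opposite case with the largest statistics. Its start had a level of 0.886 in PDGFRα+, against 0.367 in CD137+, and its end 0.199 and 0.861. Rcn3 went the other way, with 0.425 in PDGFRα+ and 0.789 in CD137+ at the start and 0.823 and 0.292 at the end. Cd101, an immunoglobulin superfamily gene of leukocytes, resembled P2ry12, with 0.920 and 0.443 at the start and 0.112 and 0.764 at the end. Ehbp1, a gene of endocytic trafficking, was lower at the start (0.145 and 0.622) and higher at the end (0.942 and 0.399), and so was the gene model 9230112D13Rik.

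In 13 cases 1 region lay in the start windows of a pair of genes, and 11 of these were lower in PDGFRα+. Over all regions of chromosomes 1 to 19 the share lower was 77.7%, and at gene starts 317 of 486 were lower. With only 13 cases, 11 is near the share over all regions. In the region shared by Anxa5, an annexin gene, and 1810062G17Rik the level was 0.160 in PDGFRα+ and 0.723 in CD137+. In that of Rxrb, a retinoid receptor gene, and Slc39a7, a zinc transporter gene, it was 0.267 and 0.896. Peg3 and Usp29, neighbouring imprinted genes of the paternal allele, shared a region at 0.416 in PDGFRα+ and 0.763 in CD137+. Fam229a and Tssk3 shared one at 0.168 and 0.660. The pair Tmc6 and Tmc8, transmembrane channel-like genes, was 1 of the 2 higher cases and had the widest difference of these, with 0.942 in PDGFRα+ and 0.143 in CD137+.

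In the extracellular matrix list the balance of lower and higher genes was close to that of genes in general. At known starts 5 of its 6 genes were lower, and 3 more genes had no strand given. Among all 510 genes with a start region, 344 were mostly lower. Of 42 genes of this list, 9 had a region in a window (21.4%, against 5.96% of all genes), 7 of them lower and 2 higher. Among all genes with a region 67.3% were mostly lower, a share from which 7 of 9 is not far apart. The median difference over the 9 regions was -0.453, against -0.442 over all 1258. Col1a2, a fibrillar collagen gene at the start of which 29 cytosines were covered, had levels of 0.0672 in PDGFRα+, against 0.520 in CD137+. Col3a1, also a fibrillar collagen gene, had 0.0631 in PDGFRα+ and 0.601 in CD137+ at its start. Col6a1 and Col6a2, subunits of microfibrillar collagen, had 0.185 and 0.114 in PDGFRα+, against 0.853 and 0.854 in CD137+. Mmp14, a membrane-bound collagenase gene, had 0.116 in PDGFRα+ and 0.725 in CD137+, in a region that also lay at the end of another gene. Dcn (decorin, 0.0762 and 0.495) and Lox, a collagen cross-linking enzyme gene (0.113 and 0.530), were lower in windows without a given strand. The 7 lower genes thus ranged from 0.0631 to 0.185 in PDGFRα+ and from 0.495 to 0.854 in CD137+. The exceptions were Mmp2, a gelatinase gene, with 0.902 in PDGFRα+ and 0.210 in CD137+, and Vcan, a large proteoglycan gene, with 0.786 and 0.340.

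Leukocyte markers that had a region were mostly higher in PDGFRα+ cells. Of 32 leukocyte genes, 11 had a region in a window (34.4%, against 5.96% of all genes). These were 8 mostly higher and 3 lower, against 31.4% mostly higher among all genes with a region. Of their 13 regions 10 were higher, and the median difference was 0.488. Ptprc had levels of 0.801 in PDGFRα+, against 0.192 in CD137+ close to its start, and 0.880 and 0.381 further in. Vav1, a signalling gene of blood cells, had 0.902 in PDGFRα+ and 0.241 in CD137+, and Laptm5, a lysosomal protein gene of blood cells, 0.835 and 0.206. All 3 genes with a region at a known start were higher. Itgb2, an integrin gene (0.705 and 0.230), Cd4, a T cell coreceptor gene (0.929 and 0.442), Cd79b, of the B cell receptor (0.957 and 0.358), and Tyrobp, a myeloid adaptor gene (2 of 2 regions higher), were higher where strand was not given. The 3 lower genes were Spi1, the myeloid transcription factor gene (0.133 in PDGFRα+ and 0.790 in CD137+), Cd3e (0.324 and 0.966) and Gimap1. Whether leukocytes in either sorted population had a part in these levels was not tested.

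Mesothelial and epithelial markers were lower in all 7 of 18 genes that had a region, with a median difference of -0.550. A region was found in 38.9% of the list, against 5.96% of all genes, and 67.3% of all genes with a region were mostly lower. Like the other gene lists, this one was chosen with earlier results of these data known, so these shares are no separate evidence. Krt7 had levels of 0.206 in PDGFRα+, against 0.826 in CD137+ over its start. Upk3b, a uroplakin gene of mesothelium, had 0.337 in PDGFRα+ and 0.887 in CD137+, Lrrn4 0.236 and 0.900, and Muc16, a mucin gene, 0.157 and 0.950, all at their starts. Wt1, a transcription factor gene of mesothelium (0.427 and 0.962), and Krt19 (0.304 and 0.839) had no strand given, and Rspo1, a Wnt agonist gene, was lower at its end (0.441 and 0.744). Whether mesothelial cells had a part in these levels was not tested. In the mural and smooth muscle list 4 of 18 genes had a region (22.2%), 3 lower and 1 higher, which is near the 67.3% lower over all genes. Acta2 had 0.148 in PDGFRα+ and 0.723 in CD137+ at its start, Lmod1 was lower in both of its regions, and Mylk was lower at its end, while Myocd, the cofactor gene of smooth muscle identity, was higher in both (0.656 and 0.240 in the larger). In the endothelial list 4 of 23 genes had a region (17.4%), and 3 of the 4 were higher, against 31.4% over all genes. Among them were Eng (0.890 and 0.191) and Tie1 (0.816 and 0.420), and Tek was lower (0.272 and 0.804).

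**Figure D5:**
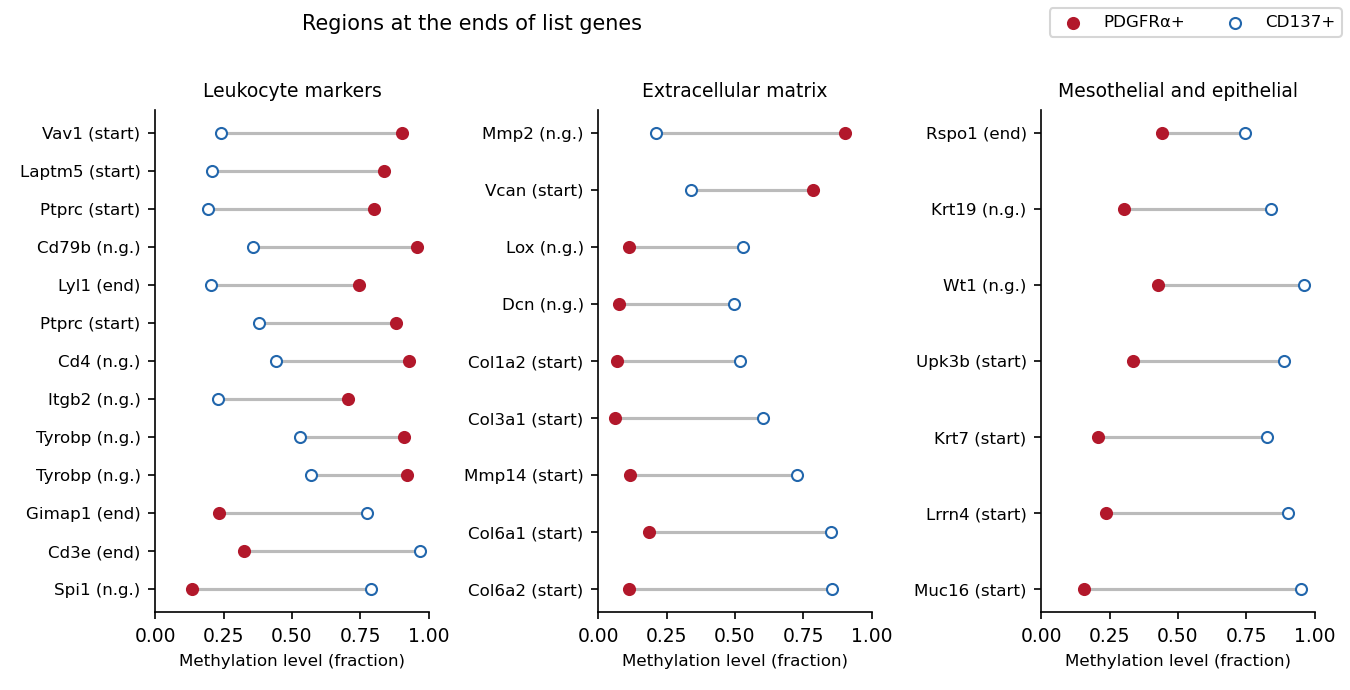
Methylation level of each region at an end of a leukocyte marker, extracellular matrix or mesothelial and epithelial marker gene, as a fraction, in PDGFRα+ (filled red) and CD137+ (open blue) cells; the window is given after each gene, with n.g. where strand was not given. Of the 13 leukocyte regions 10 are higher in PDGFRα+; 7 of the 9 matrix regions and all 7 mesothelial and epithelial regions are lower.

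Patterning transcription factor genes known to mark body position or fat depot, where they had a region, were mostly higher in PDGFRα+ cells at their starts or ends. Of 90 genes, 26 had a region (28.9%, against 5.96% of all genes), and 21 were mostly higher, 4 mostly lower and 1 split. Over all genes with a region 31.4% were mostly higher. Of their 39 regions 33 were higher, with a median difference of 0.434. Osr1, a mesenchymal zinc finger gene, had 0.803 in PDGFRα+ and 0.276 in CD137+, and Tbx2, a T-box gene, 0.862 and 0.352. Hoxb6 had 0.882 in PDGFRα+ and 0.242 in CD137+. At known starts 5 of 6 genes were higher, such as Tbx18 (0.785 and 0.265), with Hoxa5 the exception. At known ends 8 of 12 were higher. Many of these genes are neighbours in Hox clusters, so they are not independent of each other. The direction of these genes, of the leukocyte markers and of the matrix genes over whole gene spans was known from earlier results of these data, so the windows are not a separate line of evidence.

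Of 32 white adipocyte genes, 6 had a region (18.8%, against 5.96% of all genes), 4 higher and 2 lower. Over all genes with a region 31.4% were mostly higher. Retn, which encodes resistin, was lower before its start (0.249 in PDGFRα+ and 0.923 in CD137+), and Cd36, a fatty acid transporter gene, was lower at its start (0.236 and 0.716). Zfp423, a preadipocyte transcription factor gene, was higher at its end (0.825 and 0.276). Fabp4, of fatty acid transport (0.968 and 0.416), Gpd1, of glycerol synthesis (0.865 and 0.220), and Dgat2, of triglyceride synthesis (0.867 and 0.371), were higher, with no strand given. In the brown and beige list 2 of 29 genes had a region (6.90%), Fgf21, a metabolic hormone gene, lower at its start (0.280 and 0.813), and Gdf5, a BMP-family ligand gene (0.122 and 0.579). In the progenitor and fibroblast list 5 of 27 had one (18.5%), 3 higher and 2 lower. Dpp4, a marker of early progenitors, was higher at its start (0.773 and 0.211), F3 was lower near its end (0.324 and 0.873) and Anxa3 was higher (0.749 and 0.324), beside Eng and Dcn given above.

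None of the 25 glucocorticoid response genes had a region at its start or end, where 5.96% of all genes had one, so a count of 0 is near the general share. In the Hippo and TEAD list 3 of 30 had one, all at the gene end and all lower, where 67.3% of all genes with a region were lower. These were the kinase gene Taok3 (0.570 in PDGFRα+ and 0.937 in CD137+), Wwc2 (0.155 and 0.753) and the TEAD cofactor gene Vgll4 (0.244 and 0.829). Tead1, named as the subject of the study, had none in its windows. The region nearest to an end of Tead1 lay 5868 bases from its lower coordinate and had 0.701 in PDGFRα+ and 0.208 in CD137+. The genes of the sorting markers had none either. The region nearest to Pdgfra lay 9813 bases from its end, with 0.0699 in PDGFRα+ and 0.738 in CD137+, and the nearest to its start 34623 bases away. The region nearest to an end of Tnfrsf9, which encodes CD137, lay 48308 bases from the start of this gene. The regions at gene starts or ends thus give no check of the sort. In the insulin and lipid list 6 of 31 had a region (19.4%, against 5.96% of all genes). The 4 lower genes, near the 67.3% over all genes with a region, included Nr1h2, an oxysterol receptor gene, at its start (0.0822 and 0.721). The 2 higher ones included Igf1 before its start (0.948 and 0.467). The TGF-beta, BMP and Wnt list had 3 of 49 (6.12%), 2 of them lower. Tgfb3 was lower (0.173 and 0.807) and Ctnnb1, which encodes beta-catenin, higher at its end (0.870 and 0.507). The DNA methylation machinery had 2 of 21 (9.52%), Dnmt3l lower at its start (0.194 and 0.910) and Gadd45a lower at its end (0.187 and 0.536). The Dnmt3l region also lay at the start of Aire.

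Imprinted genes had a region in 7 of 35 (20%, against 5.96% of all genes), with 2 mostly higher, 4 mostly lower and 1 split. Among all genes with a region 67.3% were mostly lower, and 4 of 7 is near that share. Nnat, a gene expressed from the paternal allele, was the split one. Close to its start the level was 0.679 in PDGFRα+ and 0.296 in CD137+, and 802 bases away 0.460 and 0.934. Zrsr1 was higher at its start (0.674 and 0.227), Ppp1r9a higher at its end (0.868 and 0.407), and Tssc4 lower in both of its start regions. The single region shared by Peg3 and Usp29 and the region of Dcn, both lower, are given above. Ribosomal protein genes, included for comparison, had a region at 1 of 28 (3.57%), which was Rpl18, higher after its start (0.848 in PDGFRα+ and 0.203 in CD137+).

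Counted by region, the interior was more often higher in genes with a higher start than in genes with a lower start. Of 203 interior regions in the 68 genes with a higher start and regions outside every window, 80 were higher in PDGFRα+ (39.4%, 32.9 to 46.3). In the 111 genes with a lower start, 63 of 305 were higher (20.7%, 16.5 to 25.6). Counted by gene, interiors in the higher-start group were mostly higher in 30, mostly lower in 30 and split in 8. In the lower-start group these counts were 17, 83 and 11. Among all regions from 1000 to 10000 bases after a start 34.3% were higher, and whether nearness to the start had a part was not tested. Without the gene that held most regions, Sox5 and Aff3, the shares were 41.7% and 21.2%. With interior regions kept only where they lay more than 10 kb from the start, they were 27.9% (21.3 to 35.6, 41 of 147 regions) and 20.8% (16.1 to 26.4), and these intervals overlap. For gene ends the shares did not differ beyond counting error, with 21.7% (16.3 to 28.2) in genes with a higher end and 21.0% (17.0 to 25.5) in genes with a lower end. Regions of 1 gene are not independent, so these intervals are too narrow.

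The limit of 1000 bases was arbitrary. Just inside it, with the nearest edge 999 bases away, lay regions of Cfap74 (0.944 in PDGFRα+ and 0.364 in CD137+), Ddah2 (0.318 and 0.823) and Tbx18 (0.785 and 0.265). Just outside, from 1001 to 1004 bases away, lay regions of Pdap1 (0.423 and 0.962), Htr1f (0.252 and 0.735) and Hoxb5 (0.925 and 0.564). Of the 1258 regions 181 covered a start or end coordinate, and the median distance of the nearest edge was 411 bases.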

How the data were processed

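The data are 1 table of differentially methylated regions between 1 PDGFRα+ and 1 CD137+ library. Per the file headers, the authors deposited the methylation level as a fraction for each library, the difference (PDGFRα+ minus CD137+) and an area statistic as scores, and the number of cytosines and the length. Per the submitters' processing notes the genome was mm10; the sources used here do not give the aligner, callers, thresholds or coverage. Only regions the authors called are listed, so shares describe called regions.

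Regions were set against RefSeq gene spans (GRCm38.p6); strand came from the RefSeq promoter table, and genes absent from it were kept without a side. A gene span starts at its outermost annotated start. Shares have 95% Wilson intervals. The members, 17 gene lists and rules were chosen with earlier results of these data known. Named genes are the 6 largest statistics per side and direction, the genes with most regions (14 by ties), the leading shared and opposite cases, up to 4 members per list, and Tead1, Pdgfra and Tnfrsf9; further list members were named after their values were seen. The circadian clock list is not reported here. The overlap search gave 0 differences from brute force on 3000 simulated regions. Alternatives changed window size, overlap rule, filters, merging and counting unit. Python 3.11.15, numpy 2.4.6, pandas 2.3.3 and matplotlib 3.10.9 were used.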

Additional observations from a re-analysis of the deposited data

How the results depend on the processing

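The share of regions higher in PDGFRα+ at gene starts stayed within its interval under all 9 alternatives, from 32.3% (counted per gene) to 37.1% (differences of at least 0.5). At gene ends it stayed within its interval under 8 and was 26.8% (21.5 to 32.9) with differences of at least 0.5. Outside the windows it was 21.2% with windows of 2000 bases, 19.8% with differences of at least 0.5, 20.6% with statistics above the median and 22.5% counted per gene; the cause was not tested. The number of regions, 1258, was 714 with windows of 500 bases, 2268 with 2000 bases, 670 with differences of at least 0.5, 644 with at least 10 cytosines and 670 with statistics above the median, since these keep fewer or more regions by construction. In all 9 alternatives the shares at starts and at ends were above the share outside. No paired analysis was possible because each group has 1 library. Depth is unknown, and no library could be left out.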

Other observations

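Annotated starts inside gene spans lie beyond the windows, which follow the outermost coordinates. Another 72 regions overlapped the promoter window of such an inner start, 29 higher in PDGFRα+ (40.3%, 29.7 to 51.8) and 43 lower. Higher ones included Erg, an ETS factor gene of endothelium (0.934 in PDGFRα+ and 0.270 in CD137+), Wipf1, a regulator of actin assembly in leukocytes (0.804 and 0.226), and Cytip (0.942 and 0.310). Lower ones included Arhgef18 (0.0910 and 0.627), Dlg1, a scaffold gene of cell polarity (0.0698 and 0.852), and H6pd, which supplies NADPH for glucocorticoid activation (0.0600 and 0.640). Tlr6, a Toll-like receptor gene, held both. Its inner start had 0.829 in PDGFRα+ and 0.30 in CD137+, while the region over its outermost start, shared with Fam114a1, had 0.149 and 0.745. These genes were chosen after their values were seen.

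The letters GAGGAAGT, a motif of the myeloid factor PU.1 searched after the data were seen, were found on either strand in 8 of the 54 promoter windows with a higher region (14.8%), in 0 of the 84 with a lower region and in 3.18% of all windows. The genes were Cbfa2t3, Cd300ld, Ctss, Eng, Evi2b, Hpgds, I830077J02Rik and Samsn1. A match says nothing of binding, and no test was made.

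On chromosome X, 14 of 365 regions lay in the windows of protein-coding genes, 5 of them higher in PDGFRα+ (35.7%, 16.3 to 61.2), against 20.5% of the other 351 (16.6 to 25).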
